A study of Mus musculus with 60 samples.

Results

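CD4 and CD8 T cells of the spleen were compared by the beta chain of their T cell receptor (TCRB). The libraries were chosen by their labels alone: all 6 TCRB libraries of spleen T cells, 3 of CD4 and 3 of CD8 T cells, out of 60 libraries in the series. Each cell type had 1 library of each of 3 donor genotypes, all C57BL/6 mice: wild type (WT), STAT3ko and STAT3koPD-1ko. STAT3ko donors carried Stat3 fl/fl with a Cre driven by the Cd4 promoter, which is active in the precursors of both CD4 and CD8 T cells. STAT3koPD-1ko donors were the same line crossed with germline PD-1-/- mice. Such donor T cells were given to BALB/c mice, which differ from C57BL/6 at the major histocompatibility complex (MHC), in an allogeneic hematopoietic cell transplantation (HCT), and the spleen cells are labelled as taken before HCT. TCRB+ cells carrying the C57BL/6 molecule H-2Kb were sorted as CD4+ or CD8+, and libraries were made from their RNA. The tables hold no Cd4 or Cd8a transcripts, so the cell type of a library rests on its sort. Another 24 TCRB libraries, from liver and gut of recipients on day 6 after HCT, were used as pairs that the spleen comparison did not use. Each of these combined cells of 3 lethally irradiated recipients that were also given T cell-depleted bone marrow.

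Values were compared in 3 pairs, a CD4 and a CD8 library of the same genotype. The pairs therefore stand in for replicates of the CD4 and CD8 difference, and their spread holds any difference between genotypes. The sources do not say whether the CD4 and the CD8 library of a genotype came from the same spleens, so p-values measure only the spread between these pairs. In every sentence below that gives 3 values for a cell type, their order is WT, STAT3ko, STAT3koPD-1ko.

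Background. The TCRB gene is assembled in each T cell by joining 1 variable (TRBV), 1 diversity (TRBD) and 1 joining (TRBJ) segment, with bases trimmed and added at the joints. The V segment encodes the loops CDR1 and CDR2, which mostly contact the MHC molecule, and the start of CDR3. CDR3 spans the joints and mostly contacts the bound peptide. CD4 T cells recognise peptides on MHC class II and CD8 T cells peptides on MHC class I, and both descend from thymocytes that already carry their beta chain when this choice is made.

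The germline segments show what each part of a receptor brings. The segments lie on chromosome 6 of GRCm38 (mm10), with the V segments upstream, then TRBD1 with the TRBJ1 cluster and TRBD2 with the TRBJ2 cluster, and TRBV31 alone downstream on the minus strand. The last bases of 6 V segments that differed between the cell types or bear on a label are printed with the part from the CDR3 cysteine on in capitals. They are followed by both D segments, whole, and by 4 J segments with the part that lies in CDR3 in capitals. All were read from the GENCODE transcripts of this build.
TRBV29, at chr6:41271394-41271881 on the plus strand: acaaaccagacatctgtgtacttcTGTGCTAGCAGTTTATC
TRBV12-1, at chr6:41113550-41114067 on the plus strand: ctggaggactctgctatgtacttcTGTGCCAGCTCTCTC
TRBV16, at chr6:41151740-41152230 on the plus strand: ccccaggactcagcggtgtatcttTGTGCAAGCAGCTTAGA
TRBV23, at chr6:41216073-41216526 on the plus strand: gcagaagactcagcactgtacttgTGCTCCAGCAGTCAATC
TRBV26, at chr6:41227505-41227993 on the plus strand: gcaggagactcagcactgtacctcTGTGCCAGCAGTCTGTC
TRBV31, at chr6:41557691-41558452 on the minus strand: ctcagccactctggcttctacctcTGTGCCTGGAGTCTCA
TRBD1, at chr6:41533201-41533212 on the plus strand: gggacagggggc
TRBD2, at chr6:41542163-41542176 on the plus strand: gggactgggggggc
TRBJ1-3, at chr6:41534323-41534376 on the plus strand: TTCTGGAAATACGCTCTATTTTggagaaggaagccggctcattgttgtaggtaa
TRBJ1-4, at chr6:41534811-41534861 on the plus strand: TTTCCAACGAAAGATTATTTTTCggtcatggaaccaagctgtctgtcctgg
TRBJ2-1, at chr6:41542754-41542803 on the plus strand: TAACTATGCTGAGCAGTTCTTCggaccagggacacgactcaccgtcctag
TRBJ2-7, at chr6:41543810-41543856 on the plus strand: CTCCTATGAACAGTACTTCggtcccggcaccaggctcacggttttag

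Receptors with the same CDR3 residues, V segment and J segment were counted as 1 clonotype. The authors gave its abundance in each library as a read fraction, so usage is the percentage of listed reads with a segment. A higher percentage can come from more cells or from more transcripts per cell, and these cannot be told apart. A clonotype had to occur in 2 or more joined libraries of a cell type to be listed. Listed clonotypes held 94.0%, 88.4% and 97.2% of the reads of the CD4 libraries and 98.4%, 95.7% and 98.4% of those of the CD8 libraries. They numbered 14052, 14224 and 9117 in CD4 and 8949, 11700 and 11681 in CD8. Read counts are not given, so depth is unknown and a clonotype at 0 is only listed at 0. The overlap of 2 libraries, which adds up the smaller of both percentages of each clonotype, set some day 6 libraries apart. Liver libraries numbered 1 shared 43.0% to 55.0% of reads in CD4 and 41.3% to 55.9% in CD8 with the spleen library of their own genotype, and gut libraries numbered 1 shared 14.96% to 22.8% and 18.6% to 25.7%. Liver and gut libraries numbered 2 shared between 4.05% and 10.9% with it. The main counts and differences at day 6 are therefore given also over libraries numbered 2 alone. In the CD4 gut libraries numbered 2, however, listed clonotypes held only 47.8%, 49.1% and 51.5% of reads. Values from these libraries leave out the remaining reads.

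V segment usage separated the cell types. Of 29 V labels in the tables, 27 of them in the spleen libraries, 20 had a mean usage of at least 0.5% and were tested, and these held 98.9% of CD4 and 99.1% of CD8 listed reads on average. Usage differed for 17 of the 20 (85.0%; limma on paired differences of log2(percent + 0.1), Benjamini-Hochberg adjusted p below 0.05), with 10 segments higher in CD4 and 7 higher in CD8. The 10 segments together took 55.3% of CD4 and 20.9% of CD8 reads, and the 7 took 19.9% of CD4 and 55.9% of CD8 reads. For all 17 the 3 CD4 and the 3 CD8 values did not overlap. The median size of the difference over the 20 segments was 1.26 on the log2 scale.

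**Figure D1:**
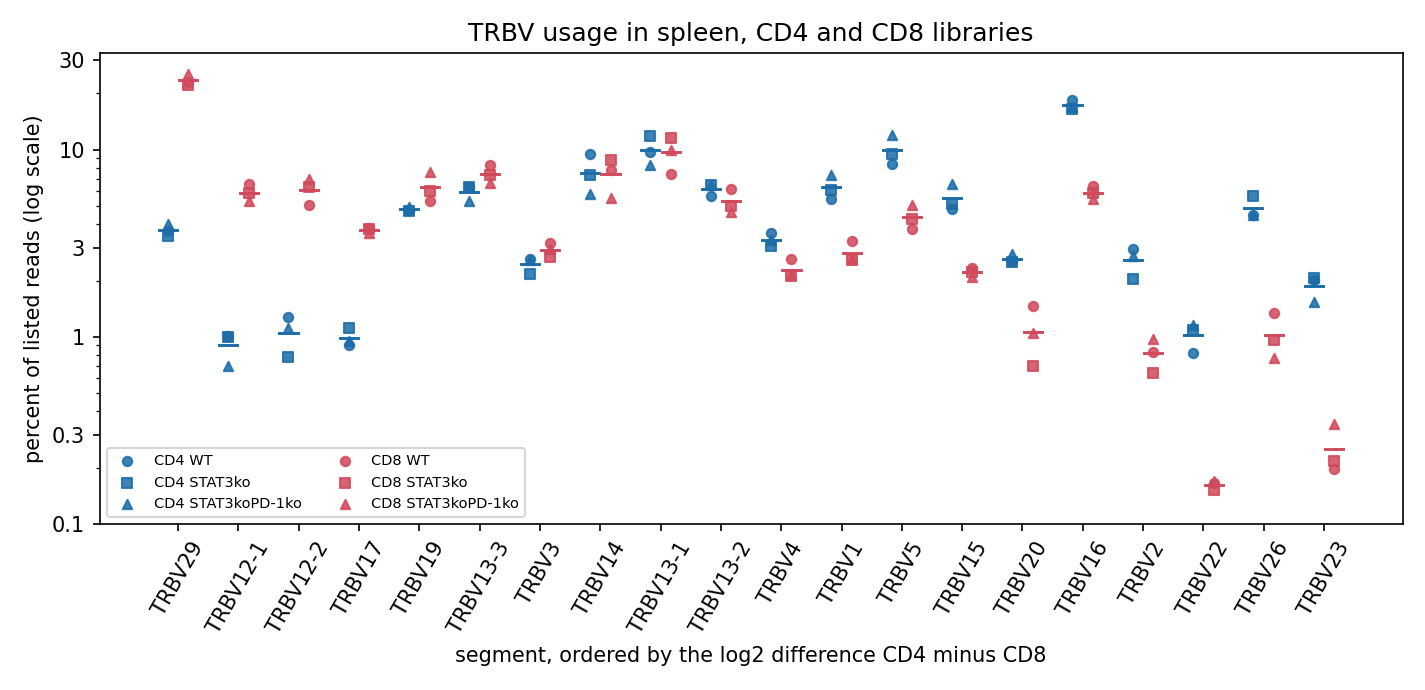
Usage of the 20 tested V segments, in percent of listed reads on a log axis, for the 3 CD4 (blue) and 3 CD8 (red) spleen libraries, with a horizontal bar at the mean of each cell type and a marker shape per genotype. TRBV29, TRBV12-1, TRBV12-2 and TRBV17 stand higher in CD8 at the left, and TRBV23, TRBV26 and TRBV22 higher in CD4 at the right, while TRBV14, TRBV13-1 and TRBV13-2 overlap.

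The segments with the widest difference towards CD8 were TRBV29, TRBV12-1, TRBV12-2 and TRBV17, known by older names as Vβ7, Vβ5 (both TRBV12 segments) and Vβ9. TRBV29 took 3.67%, 3.46% and 4.01% of CD4 reads and 23.0%, 22.1% and 25.5% of CD8 reads. It was the most used segment of every CD8 spleen library, 6.34-fold higher in the CD8 mean, with a log2 difference (CD4 minus CD8) of -2.63 (SE 0.07, adjusted p = 9.34e-05). TRBV12-1 took 1.02%, 0.993% and 0.702% of CD4 reads and 6.53%, 5.85% and 5.32% of CD8 reads (log2 difference -2.59, SE 0.09). TRBV12-2, its neighbour, took 1.28%, 0.777% and 1.11% of CD4 reads and 5.06%, 6.31% and 6.98% of CD8 reads (log2 difference -2.44, SE 0.22). The ends of both TRBV12 segments encode the same first residues of CDR3, and their usage differed between the cell types to a similar degree. TRBV17 took 0.899%, 1.11% and 0.944% of CD4 reads and 3.80%, 3.78% and 3.57% of CD8 reads (log2 difference -1.82, SE 0.09). Together these 4 segments held 6.66% of CD4 and 39.3% of CD8 reads on average, with every CD8 library at 38.0% or more and every CD4 library at 6.86% or less.

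Smaller differences in the same direction were found for TRBV19, TRBV13-3 and TRBV3. TRBV19 took 4.77%, 4.73% and 4.96% of CD4 reads and 5.30%, 6.03% and 7.63% of CD8 reads (log2 difference -0.37, adjusted p = 0.0452). TRBV13-3 took 6.32%, 6.30% and 5.32% of CD4 reads and 8.24%, 7.29% and 6.64% of CD8 reads (log2 difference -0.30, adjusted p = 0.0252). Both groups of values lay apart, but by little, and each of these calls was lost when the STAT3ko or the STAT3koPD-1ko pair was left out; TRBV13-3 lost it also without the WT pair. TRBV3, singled out after its values were seen, differed by -0.25 (adjusted p = 0.0329) and lost the call without any 1 of the 3 pairs (limma, adjusted p = 0.0591 to 0.404).

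Of the segments higher in CD4, TRBV23 (Vβ20) had the widest difference. It took 2.02%, 2.06% and 1.53% of CD4 reads and 0.196%, 0.216% and 0.343% of CD8 reads, a 7.45-fold higher mean in CD4 (log2 difference 2.50, SE 0.23, adjusted p = 0.00122). TRBV26 (Vβ3) took 4.45%, 5.68% and 4.45% of CD4 reads and 1.34%, 0.963% and 0.772% of CD8 reads (log2 difference 2.16, SE 0.19). TRBV22 took 0.824%, 1.08% and 1.16% of CD4 reads and 0.165%, 0.152% and 0.169% of CD8 reads (log2 difference 2.09, SE 0.12). TRBV23 and TRBV22 were thus rare labels in CD8, where neither passed 0.343% of reads in any library. TRBV16 (Vβ11) took the most reads of the segments higher in CD4 and led the usage in each CD4 library, with 18.5%, 16.5% and 17.0%. In CD8 it took 6.44%, 5.85% and 5.43%, for a log2 difference of 1.54 (SE 0.07). TRBV2 differed by 1.54 (SE 0.10), with 2.03% to 2.95% of CD4 and 0.638% to 0.978% of CD8 reads.

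TRBV20, TRBV15 and TRBV5 (Vβ15, Vβ12 and Vβ1) were also higher in CD4, by 1.26 (SE 0.21), 1.26 (SE 0.14) and 1.17 (SE 0.07) on the log2 scale. TRBV15 took 4.81%, 5.14% and 6.54% of CD4 reads and 2.33%, 2.22% and 2.09% of CD8 reads. TRBV5 took 8.42%, 9.46% and 11.98% of CD4 reads and 3.78%, 4.25% and 5.06% of CD8 reads. The CD4 values of TRBV5 spread more widely than the CD8 values, yet the lowest CD4 value stood above the highest CD8 value. TRBV20 took 2.52% to 2.76% of CD4 and 0.698% to 1.46% of CD8 reads, and lost the call without the STAT3koPD-1ko pair (adjusted p = 0.0799). TRBV1 and TRBV4, singled out after their values were seen, were higher in CD4 by 1.14 and 0.52. TRBV4 lost the call without the STAT3ko pair (limma, adjusted p = 0.0562), and with each clonotype counted once its difference was -0.04 and did not pass.

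The 3 segments that did not pass the test were among the more used ones. TRBV13-1 took 9.76%, 11.9% and 8.32% of CD4 reads and 7.42%, 11.6% and 9.999% of CD8 reads (log2 difference 0.05, SE 0.15). TRBV14 took 9.46%, 7.36% and 5.82% of CD4 reads and 7.79%, 8.84% and 5.50% of CD8 reads (log2 difference 0.03, SE 0.13). TRBV13-2 took 5.64%, 6.47% and 6.48% of CD4 reads and 6.18%, 5.03% and 4.68% of CD8 reads (log2 difference 0.23, SE 0.15). For these segments the ranges of the cell types overlapped, and the sign of the difference varied between pairs. TRBV13-2 passed towards CD4 once the WT pair was left out (0.41, limma, adjusted p = 0.0233). With each clonotype counted once, TRBV13-1 (-0.45, adjusted p = 0.00187) and TRBV14 (-0.73, adjusted p = 0.00145) passed the limma test towards CD8. The TRBV13 family (Vβ8) as a whole held 22.2% of CD4 and 22.4% of CD8 reads. Of the 9 V labels too rare to be tested, TRBV18 and TRBV7 were listed at 0 in every spleen library, and none of the others passed 0.749% in a library.

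Some V labels did not match the bases they were attached to. TRBV31 (Vβ14) is a functional segment, but neither table had a row with this label. CDR3 sequences that began with the first 12 CDR3 bases of germline TRBV31, printed above in capitals, nevertheless took 0.942%, 1.07% and 1.12% of CD4 reads and 0.0591%, 0.0821% and 0.113% of CD8 reads. Of these reads, 51.5%, 64.9% and 70.8% in CD4 and 53.9%, 40.3% and 59.98% in CD8 were labelled TRBV22, which the annotation lists as a pseudogene. Of the reads labelled TRBV22, 58.9%, 63.8% and 68.6% in CD4 and 19.3%, 21.7% and 40.0% in CD8 began this way. Most CD4 reads labelled TRBV22 thus had a TRBV31 start. Of the reads labelled TRBV17, 29.8%, 16.4% and 9.38% in CD4 but no more than 0.599% in CD8 began as TRBV31.

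TRBV26 reads had an unusual CDR3. At least 99.6% of them in each spleen library were listed with a CDR3 that did not run from the conserved cysteine to phenylalanine, tryptophan or leucine. TRBV26 made up 89.6%, 89.7% and 90.8% of such reads in CD4 and 79.9%, 75.2% and 73.8% in CD8. CDR3 sequences of the standard form held 95.0%, 93.7% and 95.1% of CD4 and 98.3%, 98.7% and 99.0% of CD8 reads. Lengths and residues below were measured on these only, and so leave TRBV26 out.

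J segment usage differed less widely, but for most segments. Of the 12 J segments, 10 passed the test (83.3%), with 6 higher in CD4 and 4 higher in CD8, and for 9 of the 12 the groups did not overlap. The median size of the difference over the 12 segments was 0.45 on the log2 scale. TRBJ2-1 took 9.86%, 8.86% and 10.1% of CD4 reads and 13.98%, 15.8% and 15.6% of CD8 reads, a log2 difference of -0.65 (SE 0.08, adjusted p = 0.00438). TRBJ2-7, the most used J segment of all 6 libraries, took 18.2%, 19.4% and 17.8% of CD4 reads and 26.3%, 27.6% and 25.1% of CD8 reads (log2 difference -0.51, SE 0.05). TRBJ1-2 (-0.34) and TRBJ1-1 (-0.29) were also higher in CD8, and both lost the call when the WT or the STAT3koPD-1ko pair was left out.

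Among the J segments higher in CD4, TRBJ1-4 took 7.80%, 6.35% and 7.90% of CD4 reads and 3.64%, 3.53% and 4.72% of CD8 reads (log2 difference 0.88, SE 0.09). TRBJ1-3 took 6.23%, 5.88% and 5.19% of CD4 reads and 3.38%, 3.20% and 2.73% of CD8 reads (log2 difference 0.87, SE 0.05). Both were 1.86-fold higher in the CD4 mean. TRBJ2-4 (0.63), TRBJ2-5 (0.50), TRBJ2-2 (0.41) and TRBJ2-3 (0.19) followed, with adjusted p = 0.0455 and overlapping groups for TRBJ2-3. TRBJ2-3 lost the call when any 1 pair was left out (adjusted p = 0.164 to 0.245), and TRBJ2-2 lost it without the STAT3koPD-1ko pair (adjusted p = 0.0518). TRBJ1-5 and TRBJ1-6 did not pass, at 0.15 and 0.10. The TRBJ2 cluster as a whole held 66.3%, 68.04% and 67.98% of CD4 and 69.4%, 70.8% and 71.1% of CD8 reads, so the differences lay mainly between segments within the clusters.

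**Figure D2:**
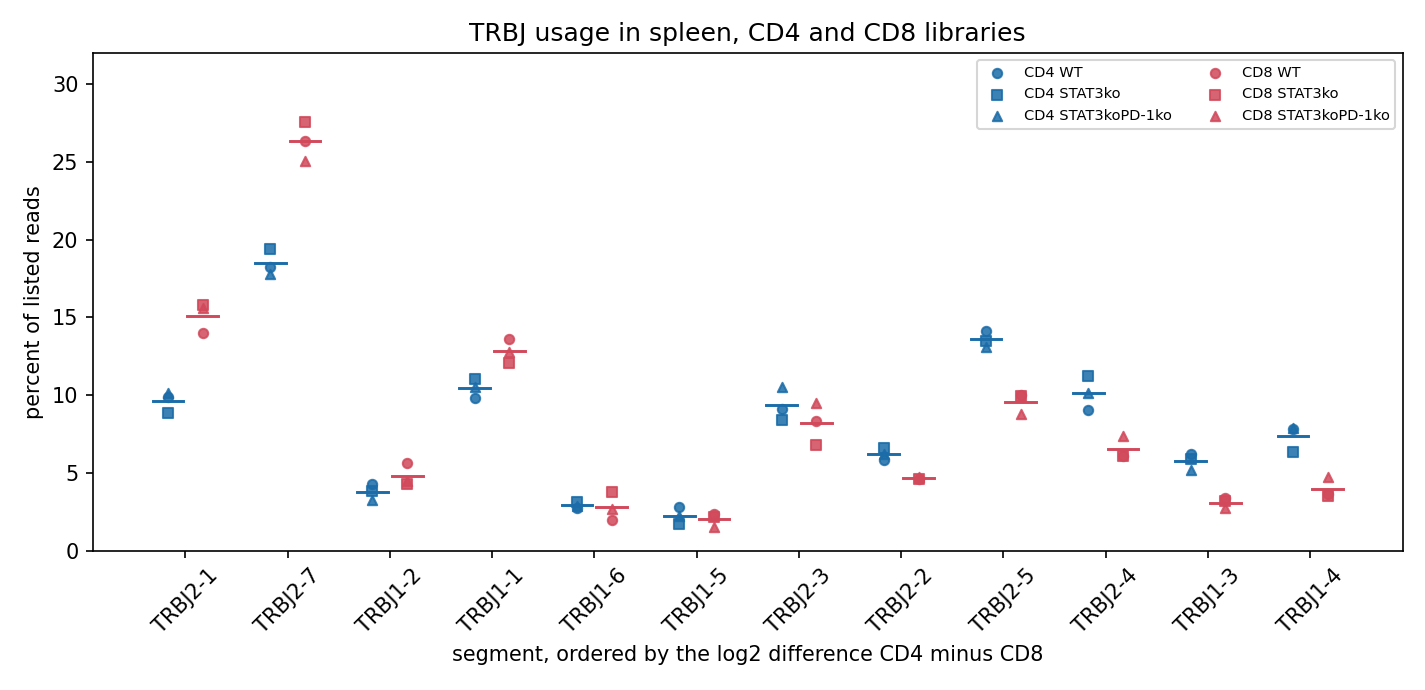
Usage of the 12 J segments, in percent of listed reads, for the 3 CD4 (blue) and 3 CD8 (red) spleen libraries, with a horizontal bar at the mean of each cell type and a marker shape per genotype. TRBJ2-1 and TRBJ2-7 stand higher in CD8, and TRBJ1-3 and TRBJ1-4 higher in CD4.

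J usage was also compared among reads with the same V segment. For the 15 V segments with a usage of at least 1% in CD4 and in CD8, J usage was measured within each. TRBJ2-7 was higher in CD8 in all 3 pairs within 12 of the 15, and TRBJ2-1 within 11, and neither was higher in CD4 in all pairs within any of them. TRBJ2-4 was higher in CD4 in all 3 pairs within 9 of the 15, TRBJ1-3 within 8, and TRBJ1-4, TRBJ2-2 and TRBJ2-5 within 7 each, while TRBJ2-2 and TRBJ2-4 were each higher in CD8 within 1. TRBJ1-1 was higher in CD8 within 8 but higher in CD4 within 3, TRBJ1-2 was higher in CD8 within only 2, and TRBJ2-3 was higher in each cell type within 1.

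Usage was also described for pairs of a V and a J segment. Of 198 V-J pairs with a mean usage of at least 0.1%, 104 (52.5%) passed the test on log2(percent + 0.02), 69 higher in CD4 and 35 higher in CD8. With 1 pair left out the count was 61 without WT, 77 without STAT3ko and 37 without STAT3koPD-1ko. The widest differences towards CD8 were those of TRBV12-2 with TRBJ2-1 (0.0258%, 0.0821% and 0.0310% of CD4 and 0.611%, 1.18% and 1.05% of CD8 reads, log2 difference -3.91) and of TRBV29 with TRBJ1-1 (0.325%, 0.0969% and 0.555% of CD4 and 3.62%, 2.85% and 4.29% of CD8 reads, -3.64). TRBV12-1 with TRBJ2-1 (-3.62) and TRBV29 with TRBJ2-4 (-3.35) followed. The widest differences towards CD4 were those of TRBV23 with TRBJ2-5 (0.353%, 0.342% and 0.191% of CD4 reads and at most 0.0136% of CD8 reads, 3.52), TRBV26 with TRBJ2-2 (3.23), TRBV23 with TRBJ1-1 (3.07) and TRBV26 with TRBJ2-3 (2.96). Without the WT pair, TRBV26 with TRBJ2-3 and TRBV29 with TRBJ2-4 lost the call (adjusted p = 0.0513 and 0.0641). All 8 pairs join V segments that differed on their own. When the usage of a pair was divided by the product of the usage of its V and its J segment, none of the 198 pairs passed the limma test, and 23 had an unadjusted p below 0.05. TRBV29 with TRBJ2-7 gives an example, at 5.67% of CD8 reads against 6.18% for the product and at 0.782% of CD4 reads against 0.685%.

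The distance between usage profiles sums these differences. It is the share of reads that would have to change label to turn the profile of one library into that of another. V profiles of CD4 and CD8 libraries of the same genotype lay 35.6% to 40.7% apart, against 6.83% to 9.20% between CD4 libraries and 7.61% to 10.8% between CD8 libraries of different genotypes. For J profiles the distances were 16.2% to 17.8%, 4.10% to 5.71% and 4.90% to 6.13%. Distances between cell types were of the same size when the genotypes differed, at 35.5% to 40.9% for V. The profiles thus lay further apart between cell types than between genotypes in every comparison of 2 spleen libraries.

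TRBD1 was assigned to 44.1%, 42.8% and 42.3% of CD4 and 42.4%, 41.0% and 40.5% of CD8 reads, and TRBD2 to 23.9%, 25.4% and 26.4% of CD4 and 28.6%, 29.2% and 27.7% of CD8 reads. The remaining 28.99% to 31.99% of reads had no D segment assigned. As a share of reads with a D segment, TRBD1 made up 64.8%, 62.8% and 61.6% in CD4 and 59.8%, 58.4% and 59.4% in CD8. The difference of 3.87 percentage points (SD 1.496, 3 pairs) had the same sign in 3 of 3 pairs, and the exact sign-flip permutation test gave p = 0.25, the smallest that 3 pairs allow (two-sided; adjusted over 3 single values, 0.375). TRBD2 lies downstream of the TRBJ1 cluster and is not placed to join it in the usual order. Reads with TRBJ1 had TRBD1 in 86.5% to 90.0% of those with a D segment in CD4 and in 84.4% to 89.8% in CD8. Reads with TRBJ2, which either D segment can join, had TRBD1 in 53.9%, 52.7% and 50.5% in CD4 and in 48.7%, 48.8% and 48.3% in CD8. The size of the D difference depends on which CDR3 are kept: it was 5.61 points over CDR3 of the standard form, and 1.67 with each clonotype counted once.

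CDR3 was longer in CD4 than in CD8. Its mean length was 13.75, 13.69 and 13.74 residues in CD4 and 13.47, 13.49 and 13.50 in CD8, counted from the cysteine to the final residue of the J part. The difference was 0.24 residues (SD 0.04), in the same direction in 3 of 3 pairs (exact sign-flip permutation test, p = 0.25, the smallest possible; adjusted 0.375). With each clonotype counted once it was 0.09 residues. The shape of the distribution differed. Of 8 length classes with a mean share of at least 0.5%, 4 passed the test (50.0%). CDR3 of 10 residues made up 0.632%, 0.365% and 0.466% of CD4 and 1.60%, 2.04% and 1.81% of CD8 reads (log2 difference -1.72, SE 0.20). CDR3 of 11 residues made up 3.47%, 3.63% and 4.597% of CD4 and 8.23%, 8.67% and 9.05% of CD8 reads (-1.14, SE 0.08). The short classes were thus higher in every CD8 library, and CDR3 of 12 residues differed in the same direction by -0.46. CDR3 of 13 residues made up 25.0%, 27.7% and 27.6% of CD4 and 21.6%, 19.5% and 20.6% of CD8 reads (0.38, SE 0.08). Classes of 14 to 17 residues did not pass. In all, 10 to 12 residues were found in 15.1% of CD4 and 25.3% of CD8 reads, and 16 or more in 7.47% and 7.79%. Without the STAT3koPD-1ko pair only the class of 11 residues passed, and the class of 13 lost the call also without the STAT3ko pair.

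**Figure D3:**
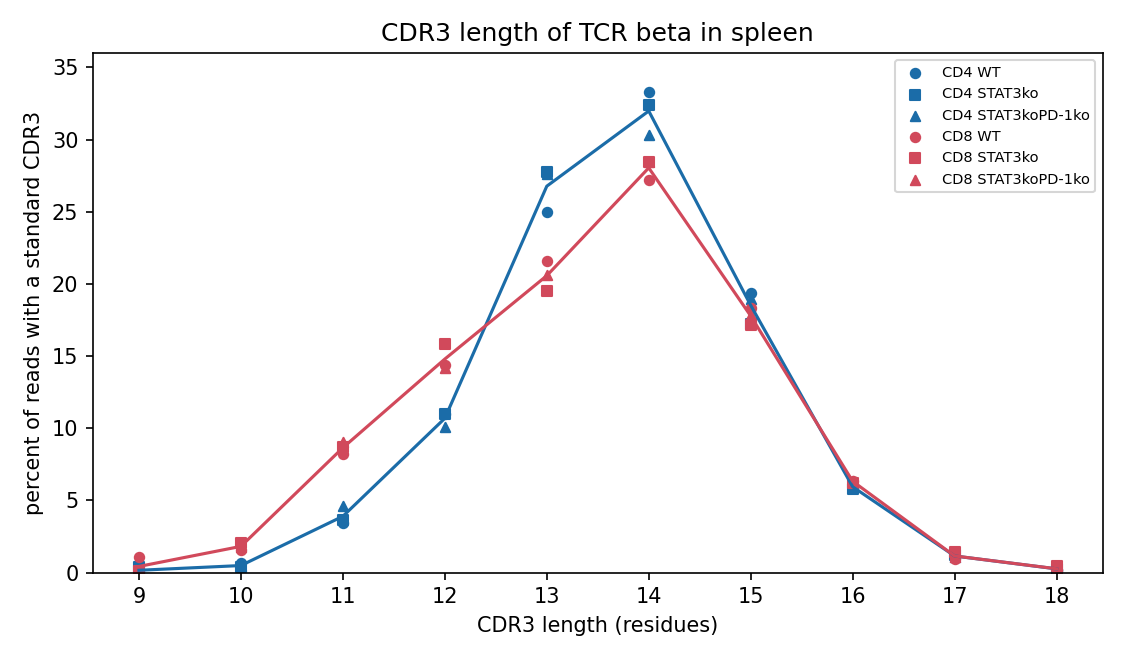
Percent of reads with a CDR3 of each length, from 9 to 18 residues, for the 3 CD4 (blue) and 3 CD8 (red) spleen libraries, with a line through the mean of each cell type and a marker shape per genotype. CD8 libraries lie higher at 10 to 12 residues and CD4 libraries higher at 13 and 14 residues.

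The mean length and its distribution were also compared with segment usage held equal. After the CD4 and the CD8 library of a genotype were weighted to a common mix, the mean usage in both of the V-J pairs they share, the mean lengths were 13.65, 13.60 and 13.70 in CD4 and 13.63, 13.65 and 13.65 in CD8, a difference of 0.005 residues (exact sign-flip permutation test, p = 1). The shape still differed in that mix: classes of 10, 11, 13, 16 and 17 residues passed the test, with 10 (-1.11), 11 (-0.81), 16 (-0.41) and 17 (-0.56) higher in CD8 and 13 (0.57) higher in CD4. Within single V segments the direction varied. CDR3 was longer in CD4 in all 3 pairs within 6 of the 15 segments of at least 1% in both cell types, and longer in CD8 within 2; TRBV26, 1 of the 15, gave almost no standard CDR3. Within TRBV13-1, mean length was 13.64, 13.66 and 13.78 residues in CD4 and 13.19, 13.20 and 13.16 in CD8. TRBV13-2, TRBV13-3 and TRBV19 differed by similar amounts of 0.48, 0.51 and 0.41 residues, and TRBV29 and TRBV12-2 by 0.27 and 0.08. TRBV3 and TRBV4 had the opposite direction, with CDR3 longer in CD8 by 0.34 and 0.25 residues. Bases between the V and the J part numbered 8.22, 8.05 and 8.22 on average in CD4 and 8.44, 8.55 and 8.33 in CD8. Segment usage was not held equal for these means, and their relation to CDR3 length was not tested.

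The 5 central residues of CDR3, which are farthest from the germline-encoded ends, differed in part. Of the 20 amino acids, 5 (25.0%) passed the test. The fit gave every residue the same SE, 0.11, so these p-values rest on a spread pooled over the residues. Glutamine, a polar residue, made up 7.33%, 7.81% and 7.38% of central positions in CD4 and 5.24%, 4.67% and 4.82% in CD8 (log2 difference 0.60, SE 0.11, adjusted p = 4.31e-05). Arginine, which is positively charged, made up 7.14%, 6.41% and 7.23% in CD4 and 5.03%, 5.82% and 5.48% in CD8 (0.34). Both were higher in each CD4 library than in any CD8 library. Tyrosine (3.69%, 3.67% and 3.31% in CD4 and 4.42%, 4.94% and 4.55% in CD8, -0.37), proline (-0.37) and tryptophan (-0.31) were higher in CD8. Tyrosine and tryptophan are aromatic, and proline restricts the backbone. The 8 hydrophobic residues together made up 22.2% of central positions in CD4 and 24.5% in CD8, and glycine, the most frequent residue, 22.6% and 24.4%.

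No residue call was kept when segment usage was held equal, though not every difference became smaller. Weighted to a common V-J mix, none of the 20 residues passed the limma test, and 6 had an unadjusted p below 0.05. The difference of glutamine was then smaller, at 0.33 (adjusted p = 0.0964), as was that of proline, at -0.21. Arginine (0.38 against 0.34 over all reads, adjusted p = 0.0681) and tryptophan (-0.39 against -0.31, adjusted p = 0.0964) differed by more. Tyrosine changed sign, to 0.16. SEs in this fit were not the same for every residue, so its calls and those over all reads do not rest on the same spread. Without the STAT3koPD-1ko pair only glutamine passed, and without the STAT3ko pair glutamine and arginine. With each clonotype counted once, 13 residues passed, and the 5 named above were among them.

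**Figure D4:**
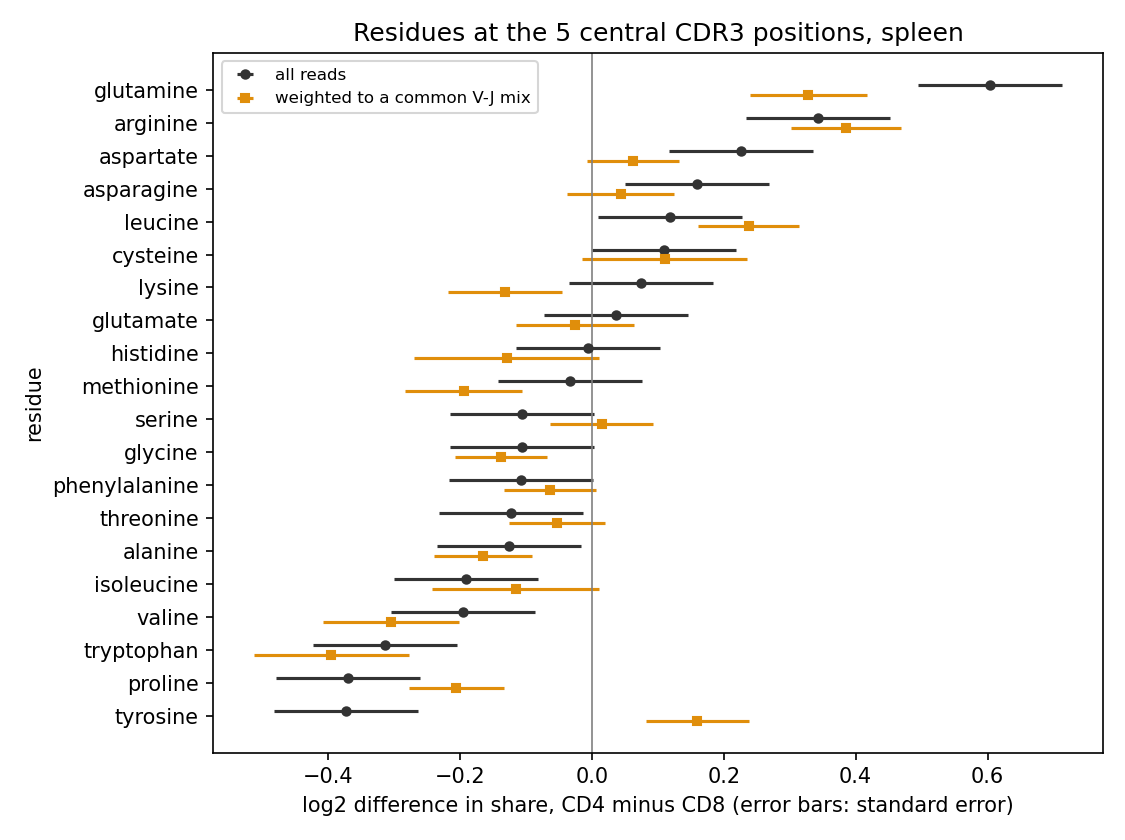
Log2 difference in share of the 5 central CDR3 positions, CD4 minus CD8, for each amino acid, with limma standard errors over 3 pairs. Black circles show all reads, where every residue has the same standard error. Orange squares show values after weighting to a common V-J mix. Glutamine and arginine lie to the right, towards CD4, under both, while tyrosine lies at -0.37 for all reads and at 0.16 for the common mix.

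The spread of reads over clonotypes did not separate the cell types. The Shannon effective number, that is how many clonotypes of equal size would have this entropy, was 3916, 3845 and 2796 in CD4 and 2044, 3297 and 4485 in CD8. It was higher in CD4 in 2 of 3 pairs (log2 difference 0.16, SD 0.81; exact sign-flip permutation test, p = 0.75). The 10 most frequent clonotypes of a library held 4.07%, 4.63% and 4.33% of CD4 and 5.73%, 3.52% and 2.90% of CD8 reads. By this number WT had the highest value among the CD4 libraries and the lowest among the CD8 libraries; it also rises with the number of listed clonotypes.

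Few clonotypes were found in both cell types. The tables held 85775 CD4 and 82447 CD8 clonotypes, of which 6275 were in both. In the spleen libraries 33096 CD4 and 28703 CD8 clonotypes were listed, and 1394 of them were listed in at least 1 spleen library of each cell type, 4.21% of the former and 4.86% of the latter. They held 5.31%, 7.42% and 6.92% of CD4 and 11.4%, 7.84% and 9.92% of CD8 reads. The overlap of CD4 and CD8 libraries of the same genotype was 0.733%, 0.966% and 1.11% of reads, and that of different genotypes 0.689% to 1.04%. The means of 0.935% and 0.876% did not differ beyond their spread (exact one-sided permutation test over 6 arrangements, p = 0.5, where the smallest possible is 0.1667). By the Jaccard index, the share of listed clonotypes found in both libraries whatever their reads, values were 1.17%, 1.36% and 1.65% for the same genotype and at most 1.26% for different genotypes, a difference of 0.252 with p = 0.1667 by the same exact test, so the pairing by genotype had the highest value of the 6 arrangements by this index. Libraries of the same cell type but different genotype overlapped by 5.20% to 6.49% in CD4 and 4.99% to 6.33% in CD8. The listing rule works within a cell type, so these overlaps are not alike. A clonotype of 2 CD4 libraries is listed, but 1 found in a CD4 and a CD8 library needs a further library of each cell type. How much of the gap the rule makes was not tested.

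The 1394 clonotypes found in both cell types had a mean CDR3 length of 13.4 residues and a mean of 6.82 bases between V and J. Clonotypes of CD4 spleen libraries only had 13.8 residues and 8.79 bases, and those of CD8 spleen libraries only 13.8 residues and 9.02 bases. The 539 clonotypes listed in all 3 CD4 spleen libraries and at 0 in CD8 spleen had 13.25 residues and 6.21 bases. The 471 listed in all 3 CD8 spleen libraries and at 0 in CD4 spleen had 12.99 residues and 7.01 bases. Low means were thus not particular to clonotypes found in both cell types, and their relation to recurrence was not tested. Of the 1394, 482 (34.6%) were listed with the same nucleotide sequence in both tables. The tables give 1 nucleotide sequence per clonotype, so a different one does not exclude a shared one. TRBV13-1 was the V segment of 178 of them, TRBV13-2 of 172, TRBV16 of 170 and TRBV29 of 103.

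Only 15 clonotypes were listed in all 6 spleen libraries. Those of standard form with the highest lowest percentage are shown with the bases that the tables assign to neither V nor J in capitals; a second line is given where the CD4 and the CD8 table hold different bases.
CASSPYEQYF, TRBV29 and TRBJ2-7, CD4: tgtgctagcagcccttatgaacagtacttc
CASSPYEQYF, TRBV29 and TRBJ2-7, CD8: tgtgctagcagtccttatgaacagtacttc
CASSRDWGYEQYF, TRBV16 and TRBJ2-7, CD4: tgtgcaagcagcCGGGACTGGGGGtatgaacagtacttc
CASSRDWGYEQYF, TRBV16 and TRBJ2-7, CD8: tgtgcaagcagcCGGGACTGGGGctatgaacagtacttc
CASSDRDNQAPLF, TRBV13-1 and TRBJ1-5, CD4: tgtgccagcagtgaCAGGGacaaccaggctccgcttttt
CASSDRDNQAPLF, TRBV13-1 and TRBJ1-5, CD8: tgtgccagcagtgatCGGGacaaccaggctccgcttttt
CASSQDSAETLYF, TRBV12-1 and TRBJ2-3, both: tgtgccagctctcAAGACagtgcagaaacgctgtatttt
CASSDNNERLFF, TRBV13-1 and TRBJ1-4, both: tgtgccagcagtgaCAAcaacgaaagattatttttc

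By the assigned positions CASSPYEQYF had no base outside V and J in either table, but its proline codon matches neither of the germline ends printed above. This clonotype took 0.00275%, 0.00265% and 0.0157% of CD4 and 0.0160%, 0.00266% and 0.00427% of CD8 reads. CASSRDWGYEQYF took 0.0127%, 0.0615% and 0.00238% of CD4 and 0.00661%, 0.0506% and 0.00350% of CD8 reads. For both, CD4 and CD8 values overlapped. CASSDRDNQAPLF took 0.0121%, 0.00211% and 0.00286% of CD4 and 0.00544%, 0.0703% and 0.0233% of CD8 reads. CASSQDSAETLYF took 0.00110%, 0.00211% and 0.00143% of CD4 reads and 0.00272%, 0.0141% and 0.00350% of CD8 reads. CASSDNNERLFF took 0.00330%, 0.00742% and 0.00333% of CD4 reads, and in CD8 0.00350%, 0.000760% and 0.0897%, the last in STAT3koPD-1ko. Only 9 of the 15 had a CDR3 of the standard form. Of the rest, YAEQFF with TRBV21 and TRBJ2-1 was the most frequent at 0.414%, 0.535% and 0.349% of CD4 and 0.251%, 0.269% and 0.214% of CD8 reads, and GAEQFF with TRBV8, an annotated pseudogene, and TRBJ2-1 took at most 0.00689%. The bases of YAEQFF all lie in the capitals of TRBJ2-1 printed above, so it holds no V or added base, and it made up most reads labelled TRBV21 in all 6 libraries. Both short sequences lack the cysteine and were listed in all 24 day 6 libraries.

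Many more clonotypes recurred within a cell type, which asks for fewer libraries than recurrence in both. In CD4, 615 clonotypes were listed in all 3 spleen libraries, and 539 of these were at 0 in all 3 CD8 libraries. In CD8, 568 were listed in all 3, and 471 were at 0 in all 3 CD4 libraries. TRBV16 was used by 134 (24.9%) of the 539 CD4 clonotypes, against 11.6% of all clonotypes listed in CD4 spleen only. TRBV15 was used by 52 (9.65%), against 5.43%, TRBV26 by 59 (10.9%), against 15.4%, and TRBV23 by 3 (0.557%), against 5.18%, so the shares of TRBV26 and TRBV23 were lower among the recurrent clonotypes. TRBV29 was used by 109 (23.1%) of the 471 CD8 clonotypes, against 12.7% of those listed in CD8 spleen only, and TRBV12-1 by 57 (12.1%), against 6.85%. TRBV12-2 was used by 40 (8.49%), against 6.32%. Lower shares among the recurrent clonotypes were found for TRBV17 (2.12%, against 3.70%), TRBV19 (4.67%, against 7.37%) and TRBV13-3 (7.01%, against 8.29%), also higher in CD8. TRBV14, which did not pass by reads, had a higher share in both sets, 8.53% against 3.44% in CD4 and 9.55% against 6.09% in CD8. The clonotypes with the highest low value in each set are printed with bases outside V and J in capitals.
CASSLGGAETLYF, CD4, TRBV16 and TRBJ2-3: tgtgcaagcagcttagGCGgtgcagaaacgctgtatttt
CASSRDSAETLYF, CD4, TRBV16 and TRBJ2-3: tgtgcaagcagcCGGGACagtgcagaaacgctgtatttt
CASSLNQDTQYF, CD4, TRBV16 and TRBJ2-5: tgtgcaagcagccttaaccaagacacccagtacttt
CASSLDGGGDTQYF, CD4, TRBV16 and TRBJ2-5: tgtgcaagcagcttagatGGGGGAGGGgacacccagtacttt
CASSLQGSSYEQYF, CD4, TRBV14 and TRBJ2-7: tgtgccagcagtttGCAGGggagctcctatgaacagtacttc
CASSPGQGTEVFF, CD8, TRBV29 and TRBJ1-1: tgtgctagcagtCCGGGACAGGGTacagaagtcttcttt
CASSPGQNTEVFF, CD8, TRBV29 and TRBJ1-1: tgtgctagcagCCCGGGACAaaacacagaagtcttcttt
CD8, TRBV17 and TRBJ2-7: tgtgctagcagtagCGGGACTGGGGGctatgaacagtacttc
CD8, TRBV29 and TRBJ1-1, last of this pair: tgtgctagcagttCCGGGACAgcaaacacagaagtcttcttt
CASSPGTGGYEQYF, CD8, TRBV19 and TRBJ2-7: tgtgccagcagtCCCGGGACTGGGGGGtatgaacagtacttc

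The first 4 CD4 clonotypes all used TRBV16. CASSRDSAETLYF took 0.151%, 0.0546% and 0.439% of CD4 reads, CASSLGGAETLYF 0.0556%, 0.0917% and 0.138%, and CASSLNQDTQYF 0.0479%, 0.0515% and 0.104%. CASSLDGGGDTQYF took 0.0622%, 0.0371% and 0.0443%, and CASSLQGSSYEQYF 0.145%, 0.215% and 0.0362%. Among the CD8 clonotypes, 3 paired TRBV29 with TRBJ1-1, and the tables assigned TRBD1 to each of them. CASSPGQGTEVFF took 0.113%, 0.334% and 0.184% of CD8 reads, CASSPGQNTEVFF 0.0716%, 0.0592% and 0.316%, and the last of this pair 0.0520%, 0.0892% and 0.0742%. The TRBV17 clonotype took 0.0761%, 0.0574% and 0.118%, and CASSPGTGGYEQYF 0.0454%, 0.0369% and 0.108%; both had TRBD2 assigned and end with the TRBJ2-7 part.

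The clonotypes of a single cell type were looked up in the libraries of day 6. All 539 CD4 clonotypes were listed in at least 1 of the 12 day 6 CD4 libraries, with a median of 9, while 66 (12.2%) were listed in any of the 12 CD8 libraries. All 471 CD8 clonotypes were listed in a day 6 CD8 library, with a median of 11, and 37 (7.86%) in a CD4 library. Nearly all clonotypes listed in the spleen of 1 cell type only, 98.8% in CD4 and 99.5% in CD8, were listed in a day 6 library of the same cell type (median 2 libraries for each), which the listing rule of 2 or more libraries nearly requires. In the 6 libraries numbered 2 these shares were 36.01% and 38.4% (median 0 libraries for each). These sets had been chosen for being at 0 in the other cell type of spleen. Of all 31702 clonotypes listed in CD4 spleen only, 5.16% were listed in a day 6 CD8 library, and of all 27309 listed in CD8 spleen only, 3.85% were listed in a day 6 CD4 library, so the recurrent clonotypes were found in the other cell type at a higher share. In the 6 libraries numbered 2 of each cell type, 509 of the 539 CD4 clonotypes were listed in CD4 (median 4) and 54 in CD8, and 459 of the 471 CD8 clonotypes were listed in CD8 (median 5) and 32 in CD4. For all clonotypes listed in 1 cell type of spleen only, the other cell type then held 4.44% and 3.22%. Of the 10 clonotypes printed, 9 were listed in no day 6 library of the other cell type, and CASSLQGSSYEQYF was listed in 5 of the CD8 libraries.

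The V differences of the spleen were set beside the 12 day 6 pairs, each a CD4 and a CD8 library of the same tissue, genotype and number. Liver and gut libraries of a number may come from the same recipients, so the pairs need not be independent. At day 6, 17 of the 20 segments differed (85.0%), and 15 of the 17 that passed in spleen passed in the same direction; TRBV3 and TRBV4 did not. For 14 of the 17 the direction was the same in all 12 pairs. In the 6 pairs numbered 2, again 15 of the 17 passed in the same direction, and 15 had the same sign in all 6 pairs. TRBV29 took 2.17% to 3.99% of CD4 and 19.5% to 22.6% of CD8 reads in liver, and 0.907% to 2.24% and 18.4% to 21.2% in gut.

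The difference itself changed between spleen and day 6 for 3 segments (15% of 20; limma, adjusted p below 0.05). TRBV26 differed by 2.16 in spleen and by 3.64 at day 6 on the log2 scale (spleen minus day 6, -1.48, SE 0.32, adjusted p = 0.0036). In liver it took 7.12% to 12.4% of CD4 reads, median 8.59%, and 0.838% to 1.09% of CD8 reads, and in gut 22.6% to 28.0% of CD4 reads, median 25.6%, and 0.840% to 2.01% of CD8 reads. The CD4 share was thus higher in every day 6 library than in any spleen library, while the CD8 shares of liver and spleen overlapped. TRBV23 differed by 2.50 in spleen and 4.11 at day 6 (-1.61, adjusted p = 0.0178), with 3.05% to 5.13% of CD4 reads in liver and 8.33% to 13.7% in gut. TRBV13-1 did not pass in spleen by reads, though it did towards CD8 with each clonotype counted once, and was higher in CD8 in 12 of 12 pairs at day 6 (-0.57; spleen minus day 6, 0.62, adjusted p = 0.0467). With gut pairs alone 9 segments passed this test, and with liver pairs alone 2, TRBV23 and TRBV26. In the pairs numbered 2 alone, only TRBV26 passed it (-1.64, adjusted p = 0.0173), with -1.83 and 0.70 for TRBV23 and TRBV13-1 (adjusted p = 0.0621 and 0.0924).

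**Figure D5:**
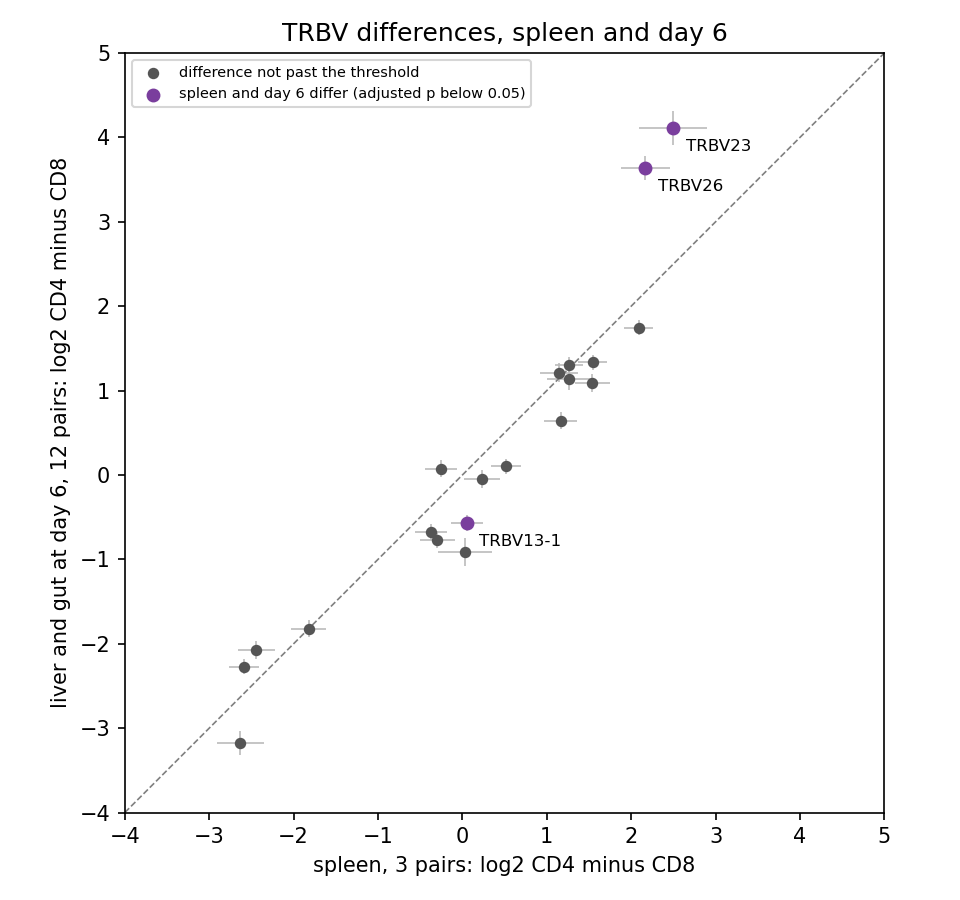
Log2 difference CD4 minus CD8 in usage of each of the 20 V segments, over 3 spleen pairs (horizontal axis) and over 12 liver and gut pairs at day 6 (vertical axis), with standard errors and a dashed line where both are equal. Most segments lie near the line, and TRBV23 and TRBV26 lie above it at 4.11 and 3.64 on the vertical axis.

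For J segments, 10 of 12 differed at day 6 (83.3%), and these were the 10 that passed in spleen, each in the same direction; 8 of them had the same direction in all 12 pairs. In the pairs numbered 2, 8 of the 10 passed in the same direction. No J segment passed the limma test of spleen against day 6 (0.0% of 12), and 1 had an unadjusted p below 0.05. None passed in the pairs numbered 2 (lowest adjusted p = 0.306), while with gut pairs alone TRBJ1-2 (-0.29) and TRBJ2-3 (-0.34) passed, both with adjusted p = 0.0418. TRBJ2-7 took 16.5% to 18.96% of CD4 and 25.0% to 26.3% of CD8 reads in liver, and 15.6% to 19.4% and 23.5% to 28.1% in gut. TRBJ1-3 took 5.14% to 6.54% of CD4 and 2.79% to 3.98% of CD8 reads in liver.

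Mean CDR3 length at day 6 was 13.68 residues (SD 0.08) in CD4 and 13.45 (SD 0.08) in CD8 over 6 units of a genotype and a number, liver and gut averaged. The difference was 0.22 residues (SD 0.05), higher in CD4 in 6 of 6 units (exact sign-flip permutation test, p = 0.0312, the smallest possible; adjusted over 3 values 0.0469), and 0.22 in the 3 units numbered 2. The TRBD1 share went the other way from spleen when all CDR3 were used: 58.1% in CD4 and 59.5% in CD8, a difference of -1.41 points (SD 0.81), with CD8 higher in 6 of 6 units (exact sign-flip permutation test, p = 0.0312; adjusted 0.0469). Over CDR3 of the standard form it was 4.89 points, with CD4 higher in 6 of 6 units. In libraries numbered 2 these values were -1.35 and 4.97. TRBV26 reads, which that form leaves out, had TRBD1 in 33.9% to 39.1% of those with a D segment in CD4 spleen and in 34.7% to 38.7% at day 6. The Shannon effective number was higher in CD4 in 3 of 6 units (log2 difference -0.25; exact sign-flip permutation test, p = 0.438) and in 1 of the 3 units numbered 2 (-0.48).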

How the data were processed

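Spleen T cells were sorted and their TCRB transcripts amplified by the authors with a template-switching kit, read as paired ends, called with MiXCR and joined with VDJtools by CDR3, V and J (submitters' notes: mm10). The deposited values are a fraction of the reads of each library, formed by the authors before the join; each table joined 18 libraries, of which 15 were used here. Another deposited column counts the libraries holding a clonotype, and position columns give where V ends and J starts. Read depth is unknown, and the precision is set by 3 pairs.

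Fractions were turned into percentages of listed reads. Differences CD4 minus CD8 of log2(percent + 0.1), or 0.02 for V-J pairs, were tested with limma 3.58.1 in R 4.3.3, with Benjamini-Hochberg adjustment within each family; a fold on this scale understates the change of rare segments. Filters were a mean of 0.5% (V, J, length) or 0.1% (V-J pairs). The fit was tested on simulated data. Single values used exact permutation tests (SciPy 1.17.1). For a common V-J mix, the V-J pairs found in both libraries of a genotype were weighted to their mean usage in both. Germline sequences came from GENCODE by segment name. Named were segments that passed, up to 12 per family by size, and those above 5% mean usage; the 4 widest V-J pairs each way; all lengths and residues that passed; and clonotypes of at most 14 residues by their lowest percentage, up to 8 in all 6 libraries and 5 per cell type. Members and lists were chosen with earlier results of these data known. Alternatives were leaving out each pair, no pairing, other pseudocounts and filters, standard CDR3 only, clonotypes counted once or listed in at least 3 libraries, a common V-J mix, and leaving out the 10 most frequent or the shared clonotypes. Chosen after seeing the data were the subsets of day 6 pairs, the TRBD1 share over standard CDR3 at day 6, leaving out TRBV21, TRBV22, TRBV24 and TRBV28, and cutting CDR3 that begin upstream to the cysteine. TCR alpha tables were not used here.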

Additional observations from a re-analysis of the deposited data

Results flagged for a closer look

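The following results stood out because the CD4 and CD8 difference was not the same in spleen and at day 6. By the limma test of spleen against day 6, TRBV26 and TRBV23 had a smaller CD4 excess in spleen, by -1.48 and -1.61 on the log2 scale (adjusted p = 0.0036 and 0.0178), and TRBV13-1 differed by 0.62 (adjusted p = 0.0467). Only TRBV26 passed in both the liver pairs and the pairs numbered 2, where TRBV23 and TRBV13-1 had adjusted p = 0.0621 and 0.0924.

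The share of TRBD1 among reads with a D segment was higher in CD4 in all 3 spleen pairs and higher in CD8 in all 6 units of day 6, where it differed by -1.41 percentage points. The difference between spleen and day 6 was not tested. Over CDR3 of the standard form, CD4 was higher in both, by 5.61 and 4.89 points.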

How the results depend on the processing

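Leaving out 1 of the 3 pairs gave 13 to 16 V segments past the test (17 with all pairs), 6 to 11 J segments (10), 37 to 77 V-J pairs (104), 1 to 4 length classes (4) and 1 to 7 residues (5); each such fit has 2 pairs. The lowest counts came without STAT3koPD-1ko, for V equally without STAT3ko. Without the WT pair 61 V-J pairs passed. In the same fits the Shannon difference ranged from -0.23 to 0.58 on the log2 scale, the overlap difference from -0.017 to 0.11 points, TRBV13-1 from -0.11 to 0.21 and TRBV14 from -0.090 to 0.18. Other settings moved the V-J pairs to 165 with each clonotype counted once and 0 over the product of V and J usage, and the residues to 3 with a pseudocount of 0.02, 13 with clonotypes counted once, 0 with a common V-J mix and 10 over all but the first 3 and last 3 residues. The V segments that differed between spleen and day 6 numbered 9 with gut pairs alone and 1 with pairs numbered 2 alone. With clonotypes listed in at least 3 libraries, the Shannon and overlap differences changed sign, to -0.012 and -0.0056, as did TRBV14 (-0.0039). TRBV14 was -0.73 with clonotypes counted once, -0.13 without the 10 most frequent, -0.057 without shared clonotypes and -0.033 in percent of all reads. TRBV13-1 was -0.45 with clonotypes counted once and -0.011 in percent of all reads, TRBV13-2 -0.15 and TRBV4 -0.041 with clonotypes counted once, and tyrosine 0.16 with a common V-J mix. The TRBD1 difference at day 6 became 4.89 over standard CDR3. The causes were not tested. Of the named values under all alternatives, 555 kept direction and side of the threshold, 72 lost and 1 gained the call, and 13 changed sign, of which TRBV13-1 and TRBV14 with clonotypes counted once (towards CD8) and the TRBD1 share at day 6 over standard CDR3 (towards CD4) passed their tests in the new direction. The mean length difference was 0.005 residues with the common mix and 0.09 with clonotypes counted once.

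Without the replicate block, that is without pairing by genotype, 14 V segments, 8 J segments, 109 V-J pairs, 5 length classes and 5 residues passed, and the single differences stayed at 3.87 points (TRBD1), 0.24 residues and 0.16 (Shannon). The calls lost were those of TRBV3, TRBV13-3, TRBV19, TRBJ1-2 and TRBJ2-3 among the named values. The labels tie the pairs by genotype alone. Deviations from the group means correlated at -0.11, 0.32 and 0.31 for V usage and at 0.60, 0.16 and 0.62 for J usage, so every pair exceeded 0.1 for J but not for V. For V-J pairs the values were 0.0039, -0.0089 and 0.0063, and for lengths -0.28, 0.040 and 0.80. CD4 and CD8 libraries of different genotypes correlated at -0.43 to 0.17 for V and at -0.64 to 0.18 for J. Rare clonotypes are limited by the unknown depth.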
